A study of Mus musculus with 6 samples.

Results

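Genes of sphingolipid and ganglioside metabolism were examined in neuro2a (N2a) cells, a mouse neuroblastoma line, after knockdown of the transcription factor NF-Y. The list held 43 genes for the synthesis, salvage and lysosomal breakdown of these lipids, chosen by name and pathway. A probe of the array mapped to 42 of them, and 41 were tested among 16490 genes in all. The other two were Cers1, a ceramide synthase to which no probe accession mapped, and Arsa, whose spot carried an outlier flag on 1 array.

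RNA was measured on 6 single-colour Agilent arrays. The 3 control arrays carried RNA of N2a cells transfected with a control miR RNAi vector, titled only Vector and read here as the empty one. The study used an empty vector and a non-targeting one as controls, and the titles do not say which. The 3 knockdown arrays carried RNA of N2a cells that received miR RNAi vectors targeting 2 subunits of NF-Y, NF-YA and NF-YC. NF-Y binds CCAAT motifs in promoters. The vectors were of the pcDNA6.2-GW/EmGFP-miR type, introduced transiently with Lipofectamine, and no genotype, age or other agent distinguished the groups. If the control vector held no non-targeting RNA, a response to an expressed RNAi transcript and a response to loss of NF-Y cannot be told apart. The labels do not say that arrays came from separate cultures, so p-values measure the spread between these samples, which may be technical. In bulk RNA, fewer cells carrying a transcript and less of it per cell cannot be told apart.

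Sphingolipids are membrane lipids built on a long-chain base that serine palmitoyltransferase makes in the endoplasmic reticulum (ER) from serine and palmitoyl-CoA, and that ceramide synthases and a desaturase turn into ceramide. In the Golgi, ceramide receives a phosphocholine or sugar head group, and adding sialic acid to the sugar chain gives gangliosides, which are abundant on the surface of neurons. Lysosomal enzymes and their activator proteins take these lipids apart again, and inherited loss of several of them causes storage diseases of the nervous system.

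Signal is given on the log2 scale relative to the 75th percentile of its array, which is 0 on this scale, and levels of different genes cannot be set against each other. A change is knockdown minus control on this scale, with its standard error (SE) from limma over 3 arrays per group. Adjusted p-values are those of limma after Benjamini-Hochberg adjustment over all tested probes. A gene was called when its adjusted p was below 0.05 and its fold change above 1.5. The targeted genes were lower, with a change of -0.76 (SE 0.055, limma adjusted p = 0.00128) for Nfya and of -1.81 (SE 0.045, limma adjusted p = 0.000323) for Nfyc.

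Some features of the arrays bear on the results. All 6 lay on 1 slide and were scanned on 1 date. Slide row 1 held the 3 control arrays and knockdown array 1, and row 2 held knockdown arrays 2 and 3, so row and group were partly mixed. Between 61.9% and 66.2% of the spots of an array were well above background, and 0 were saturated. Of 13 neuronal and neuroblast markers, 10 were well above background on all 6 arrays, whereas Nefl and Dcx, which encode a neurofilament and a microtubule protein of young neurons, were not on any array. Mycn and Th, other genes of that list, were called lower. Of the markers of other cell types, 1 of 3 for astrocytes, 1 of 3 for leukocytes, 3 of 3 for fibroblasts and 1 of 2 for endothelium were well above background on all 6 arrays.

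Of the 41 tested members, 2 were called lower (Ormdl1 and Galc), 4.88% against a background of 5.0% over all 16490 genes. One dim member, Degs2, was called higher, 2.44% against a background of 3.91%. The shares of called members were thus close to those of all genes. Without a minimum fold change, 10 members were lower at an adjusted p below 0.05, 24.4% against 15.8% of all genes, and 7 were higher, 17.1% against 15.7%. The median change of the members was -0.09, with a range from -0.68 to 0.66, and that of all genes was 0.01. Of the 41 members, 24 lay below 0 and 17 above. All knockdown arrays lay below all controls for 19 members, 46.3% against 27.1% of all genes. They lay above all controls for 10 members, 24.4% against 27.7%. The probe of 39 members was well above background on all 6 arrays.

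The balance of directions moved with the scaling. Subtracting the median of each array in place of its 75th percentile moved the median change of all genes from 0.01 to -0.11, and the members then numbered 9 lower and 0 higher at an adjusted p below 0.05. At the stricter threshold for calls, which adds the fold change, members then numbered 4 lower and 0 higher, against 2 and 1. Called genes over the whole array then numbered 1175 lower and 382 higher, against 824 and 644. For this scaling, no count of all genes at any fold is given to set beside the 9 and 0. Members described as higher therefore rose relative to the 75th percentile of their arrays. Leaving out 1 array at a time gave 7 to 9 lower members and 2 to 5 higher ones at an adjusted p below 0.05. B4galt6, Cers2, Cers4, Cers5, Degs1, Ormdl1, Ormdl2, B4galnt1 and Sgms2 passed whichever array was left out. Gm2a passed only without knockdown array 1, Ugcg and St3gal5 only without control array 3, and Cerk, Smpd2 and Sphk2 did not pass with any 1 of the 6 arrays left out. With the slide row as a block, 5 members were lower (B4galt6, Cers2, Cers4, Gm2a and Ormdl1) and 2 higher (B4galnt1 and Cers6). In slide row 1 alone, where knockdown array 1 was the only knockdown array, 0 of the 16490 genes were called, and 40 of the 41 members had the same sign as in the full comparison, which shares these arrays.

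**Figure D1:**
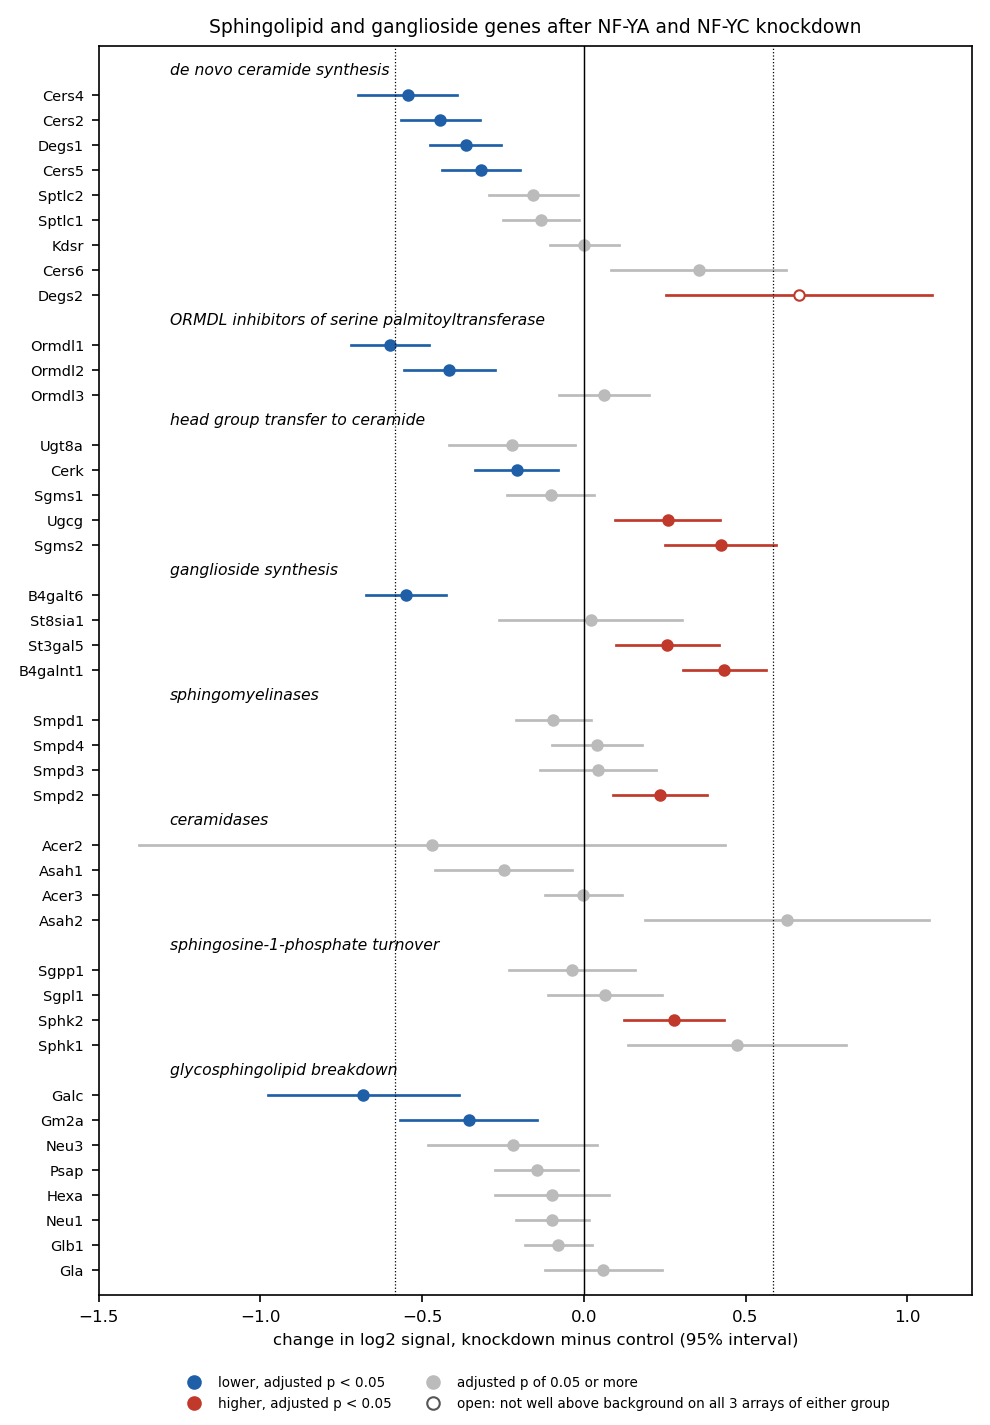
Change in log2 signal (knockdown minus control, horizontal axis) of the 41 tested members, grouped by role, with 95% intervals from limma over 3 arrays per group; dotted lines mark the 1.5-fold threshold. The de novo and breakdown groups lie mostly left of 0, with Galc and Ormdl1 past the line, and the open point of Degs2 is a probe that no array had well above background.

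Among the 9 tested genes of de novo ceramide synthesis, 4 were lower at an adjusted p below 0.05 and 1, Degs2, was higher. These were 44.4% and 11.1% of the group, against 15.8% and 15.7% of all genes. In role groups this small, 1 gene shifts a share widely. The lower genes were 3 ceramide synthases, which attach a fatty acid to the long-chain base and differ in the chain length they prefer, and the desaturase Degs1, which completes ceramide. Cers4 signal was 2.86, 2.78 and 2.67 on the control arrays and 2.22, 2.24 and 2.23 on the knockdown arrays. The control arrays were spread over a wider range than the knockdown arrays, and the groups did not overlap. Cers4 changed by -0.54 (SE 0.060, limma adjusted p = 0.00397), 1.46-fold lower and just under the fold threshold. It was past that threshold with median scaling and without control array 3, at -0.66 and -0.59.

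Cers2, the synthase for very long-chain ceramides, gave 3.14, 3.08 and 3.15 in control and 2.72, 2.63 and 2.68 in knockdown. Every knockdown array was below every control array, and the gap between groups was wider than the range of either. Its change was -0.44 (SE 0.048, limma adjusted p = 0.00373). Cers5, a synthase that prefers palmitoyl chains, changed by -0.32 (SE 0.048, limma adjusted p = 0.00962), and Degs1 by -0.37 (SE 0.043, limma adjusted p = 0.0047). Cers6, which also uses palmitoyl chains, had higher values on all 3 knockdown arrays, but its change of 0.36 (SE 0.11) did not pass (limma adjusted p = 0.0726). Of the other list of pathway genes described below, Cers3, a synthase known from skin and testis, was called higher. The family thus held members that passed in each direction.

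Degs2, which hydroxylates as well as desaturates its substrate, gave -8.26, -7.66 and -8.08 in control and -7.28, -7.38 and -7.35 in knockdown. The groups did not overlap, but none of the 6 arrays had the probe well above background, so no fold is given. Its call (limma adjusted p = 0.0411) was lost without control array 1 or 3 and without each of the knockdown arrays, and also with array weights (limma adjusted p = 0.06) and with an intensity trend (limma adjusted p = 0.392). The first steps of the pathway did not pass. Sptlc1 and Sptlc2, which encode subunits of serine palmitoyltransferase, changed by -0.13 (limma adjusted p = 0.108) and -0.16 (limma adjusted p = 0.102). The reductase gene Kdsr changed by 0.00 with a 95% interval from -0.11 to 0.11. A dimmer Sptlc2 probe changed by -0.56 (limma adjusted p = 0.0074), so the 2 probes of this gene disagreed in size.

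The ORMDL proteins sit in the ER membrane and hold serine palmitoyltransferase in check when ceramide is plentiful. Of the 3 genes, Ormdl1 and Ormdl2 fell and Ormdl3 did not pass. The share lower at an adjusted p below 0.05 was 66.7%, against 15.8% of all genes. Ormdl1 signal was 2.35, 2.41 and 2.45 in control and 1.82, 1.77 and 1.82 in knockdown. The arrays of each group lay close together with no overlap. Ormdl1 changed by -0.60 (SE 0.047, limma adjusted p = 0.00156), 1.51-fold lower. Because this lies next to the fold threshold, the call was lost without control array 3 (-0.57) and without knockdown array 2 (-0.58), while the adjusted p stayed below 0.05 in both.

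Ormdl2 gave 4.56, 4.47 and 4.55 in control and 4.18, 4.11 and 4.05 in knockdown. The highest knockdown array lay below the lowest control array. Its change was -0.42 (SE 0.055, limma adjusted p = 0.00677), and a dimmer second probe changed by -0.28 (limma adjusted p = 0.047). Ormdl3 gave 4.21, 4.16 and 4.28 in control and 4.34, 4.28 and 4.23 in knockdown. These values overlapped, and the change was 0.06 with a 95% interval from -0.08 to 0.20. The intervals of Ormdl1 (-0.72 to -0.48) and Ormdl2 (-0.56 to -0.27) did not reach that of Ormdl3, but differences between the genes were not tested.

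The 250 bases before the transcription start of the 3 Ormdl genes and of Galc are printed because Ormdl1 and Galc are the members called with measurable signal, and Ormdl2 and Ormdl3 were added after their values were seen, to show the family side by side. They come from RefSeq, build GRCm38.p6, and run 5′ to 3′ on the gene strand, with capitals marking CCAAT or its reverse complement ATTGG. The windows are chr1:53296845-53297094 on the plus strand for Ormdl1, chr10:128821630-128821879 on the minus strand for Ormdl2, chr11:98587246-98587495 on the minus strand for Ormdl3 and chr12:98259460-98259709 on the minus strand for Galc.
Ormdl1: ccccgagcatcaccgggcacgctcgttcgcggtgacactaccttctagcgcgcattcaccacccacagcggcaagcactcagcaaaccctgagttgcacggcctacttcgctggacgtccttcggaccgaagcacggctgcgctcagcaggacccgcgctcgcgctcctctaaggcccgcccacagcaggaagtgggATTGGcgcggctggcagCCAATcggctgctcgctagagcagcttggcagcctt
Ormdl2: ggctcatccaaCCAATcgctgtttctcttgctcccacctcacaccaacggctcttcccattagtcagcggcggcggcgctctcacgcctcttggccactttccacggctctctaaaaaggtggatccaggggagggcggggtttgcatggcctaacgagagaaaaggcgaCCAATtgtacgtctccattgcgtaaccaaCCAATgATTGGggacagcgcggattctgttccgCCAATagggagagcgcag
Ormdl3: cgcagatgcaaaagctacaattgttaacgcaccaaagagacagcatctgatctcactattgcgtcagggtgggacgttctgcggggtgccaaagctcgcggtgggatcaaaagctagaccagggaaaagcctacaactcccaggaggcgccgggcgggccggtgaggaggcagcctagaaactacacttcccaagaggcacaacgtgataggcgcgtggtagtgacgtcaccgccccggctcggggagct
Galc: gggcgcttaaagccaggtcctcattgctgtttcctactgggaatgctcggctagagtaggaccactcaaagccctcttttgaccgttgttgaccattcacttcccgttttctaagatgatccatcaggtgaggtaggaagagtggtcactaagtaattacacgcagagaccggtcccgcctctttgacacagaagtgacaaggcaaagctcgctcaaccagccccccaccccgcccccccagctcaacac
Counting from the start, the first base of each motif lay at -53 and -36 in Ormdl1. In Ormdl2 the motifs lay at -239, -80, -51, -45 and -18, with those at -51 and -45 a single base apart. The Ormdl3 and Galc windows held 0 matches. These are letter matches and no binding was measured.

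**Figure D2:**
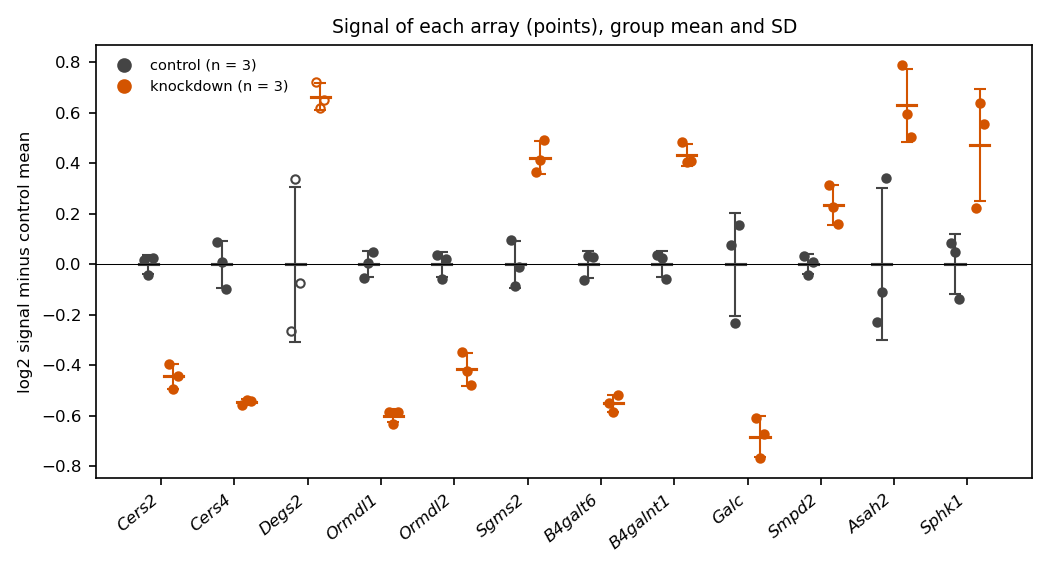
Log2 signal of each array minus the control mean of the gene (vertical axis) for 12 members, with group means (bars) and SD over 3 arrays; open points are arrays on which the probe was not well above background. Control and knockdown points do not overlap for any of the plotted genes, with Galc furthest below 0 at a change of -0.68. Several were plotted partly because their groups did not overlap, so this was partly set by the choice. Of the 41 tested members, the groups overlapped for 12.

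Head group genes moved in both directions. Of the 5, 2 were higher and 1 was lower at an adjusted p below 0.05. These were 40% and 20% of the group, against 15.7% and 15.8% of all genes. Sgms2, a sphingomyelin synthase of the plasma membrane, gave -3.18, -3.37 and -3.29 in control and -2.92, -2.87 and -2.79 in knockdown. All knockdown arrays were above all controls, and the change was 0.42 (SE 0.068, limma adjusted p = 0.012). Sgms1, the Golgi sphingomyelin synthase, changed by -0.10 (limma adjusted p = 0.236). Ugcg, which makes glucosylceramide and so opens the ganglioside path, rose by 0.26 (SE 0.064, limma adjusted p = 0.0429). Cerk, which phosphorylates ceramide, fell by 0.21 (SE 0.050, limma adjusted p = 0.0403), but its second probe did not pass, at -0.15 (limma adjusted p = 0.0967). Ugt8a, which makes the myelin lipid galactosylceramide, changed by -0.22 (limma adjusted p = 0.102).

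The 4 ganglioside genes moved in both directions, with 1 lower and 2 higher at an adjusted p below 0.05. These were 25% and 50% of the group, against 15.8% and 15.7% of all genes. B4galt6, which adds galactose to glucosylceramide to make lactosylceramide, gave 0.81, 0.90 and 0.90 in control and 0.32, 0.29 and 0.35 in knockdown. The gap between the groups was several times the range within either. Its change was -0.55 (SE 0.049, limma adjusted p = 0.00214), 1.46-fold lower, and a second probe changed by -0.62 (limma adjusted p = 0.0208). B4galt5, which encodes an enzyme of the same step, changed by -0.07 (limma adjusted p = 0.3).

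Of the 3 genes that act after lactosylceramide, 2 rose and 1 did not pass. St3gal5, the GM3 synthase that adds the first sialic acid, rose by 0.26 (SE 0.062, limma adjusted p = 0.0394). B4galnt1, which makes GM2 and GD2 and opens the complex gangliosides of brain, gave 0.29, 0.28 and 0.19 in control and 0.74, 0.66 and 0.66 in knockdown. The groups did not overlap, and the change was 0.43 (SE 0.050, limma adjusted p = 0.00454). It was also past the adjusted p with the slide row as a block. St8sia1, the GD3 synthase, changed by 0.02 with a 95% interval from -0.26 to 0.30.

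Few genes that release ceramide or sphingosine passed the test. Of the 4 sphingomyelinases, which cut sphingomyelin to ceramide, only Smpd2 passed, at 0.51, 0.44 and 0.49 in control and 0.80, 0.71 and 0.64 in knockdown. Its knockdown arrays were all above the controls but spread over a wider range. Its change was 0.24 (SE 0.057, limma adjusted p = 0.0409). Smpd1, Smpd3 and Smpd4 lay between -0.09 and 0.04.

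None of the 4 ceramidases passed. Asah2, the neutral ceramidase, gave -5.37, -5.25 and -4.80 in control and -4.35, -4.55 and -4.64 in knockdown. The groups did not overlap, though control array 3 lay near the knockdown arrays, and the change was 0.63 (SE 0.17, limma adjusted p = 0.0571). Without control array 3 it was 0.80 (limma adjusted p = 0.0194), and its second probe gave 0.41 (limma adjusted p = 0.241). Asah1, the acid ceramidase, changed by -0.25 (limma adjusted p = 0.095) on its brighter probe and by -0.26 (limma adjusted p = 0.042) on its dimmer one. Acer2, the Golgi ceramidase, was well above background on all control arrays but on 2 of the 3 knockdown arrays, and its change of -0.47 had a 95% interval from -1.38 to 0.44.

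For sphingosine-1-phosphate, a signalling lipid, Sphk1 and Sphk2 encode the kinases that make it, Sgpp1 a phosphatase that returns it to sphingosine and Sgpl1 the lyase that destroys it. Sphk1 gave -2.62, -2.66 and -2.85 in control and -2.49, -2.07 and -2.15 in knockdown. Knockdown array 1 lay just above the controls and the others further away. The change of 0.47 (SE 0.13) did not pass (limma adjusted p = 0.0599), nor did that of its second probe, 0.50 (limma adjusted p = 0.0674). Without knockdown array 1 it was 0.60 and was called (limma adjusted p = 0.0253), and with the slide row as a block it was 0.22. Sphk2 rose by 0.28 (SE 0.061, limma adjusted p = 0.0299). Sgpl1 and Sgpp1 changed by 0.07 and -0.04, and their groups overlapped.

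Of the 8 tested genes of glycosphingolipid breakdown, 7 lay below 0 and 2 were lower at an adjusted p below 0.05. Over all genes, 8120 of 16490 lay below 0. The share lower at that adjusted p was 25% in the group, against 15.8% of all genes. Galc, the lysosomal galactosylceramidase whose loss causes Krabbe disease, gave -2.91, -3.21 and -2.83 in control and -3.59, -3.75 and -3.65 in knockdown. Control array 2 was nearest to the knockdown arrays, and the groups did not overlap. Galc changed by -0.68 (SE 0.12, limma adjusted p = 0.0143), 1.60-fold lower, the change of largest size among the tested members. The call was lost without control array 1 (-0.64, limma adjusted p = 0.0565), knockdown array 2 (-0.64, limma adjusted p = 0.0527) or knockdown array 3 (-0.69, limma adjusted p = 0.0521).

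Gm2a, the activator that presents GM2 to its hexosaminidase, fell by 0.36 (SE 0.083, limma adjusted p = 0.0362). Psap, the precursor of the saposins, changed by -0.15 (limma adjusted p = 0.106), and Neu3, a sialidase of the plasma membrane, by -0.22 (limma adjusted p = 0.197). The hydrolase genes Hexa, Neu1 and Glb1 changed by -0.10, -0.10 and -0.08, and Gla by 0.06, none of them past the adjusted p.

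Arsa, the lysosomal enzyme that removes the sulfate of sulfatide, could not be judged from complete data. Its signal was 2.31, 2.14 and 2.21 in control and 1.23 and 1.18 on knockdown arrays 1 and 2. The spot of knockdown array 3 was flagged as an outlier and read 2.21. Both unflagged knockdown arrays lay far below the controls, and the flagged one lay among them. Over the 5 unflagged arrays the change was -1.01 (SE 0.072, limma adjusted p = 0.00256), 2.02-fold lower. With the flagged spot kept it was -0.68 (SE 0.30, limma adjusted p = 0.176). The call thus held only with the flagged reading left out, and both fits were chosen after the flag was seen.

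Where a member had a second tested probe, the probes lay on the same side of 0 in 8 of 8 genes. The second Acer2 probe was well above background on 0 control and 0 knockdown arrays. No such share over all genes with a second probe is given. Of the 41 tested members, 24 passed in neither direction, with changes from -0.47 to 0.63 and limma adjusted p-values from 0.0571 to 0.99.

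A further 40 genes of the pathway, written as a list from general knowledge, were read in the same way, and 35 were tested. Called lower were 2 and called higher 6, 5.71% and 17.1% against the background of 5.0% and 3.91%. At an adjusted p below 0.05 and any fold, 4 were lower and 10 higher. These were 11.4% and 28.6% of the list, against 15.8% and 15.7% of all genes. The median change of the list was 0.11, against 0.01 for all genes.

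Samd8 encodes a sphingomyelin synthase-related protein of the ER that makes ceramide phosphoethanolamine. Its signal was -1.33, -1.32 and -1.39 in control and -2.40, -2.46 and -2.40 in knockdown. The arrays of each group were nearly equal and far apart from the other group. Its change was -1.08 (SE 0.045, limma adjusted p = 0.000404), 2.11-fold lower. Sptlc3, an alternative subunit of serine palmitoyltransferase, was called lower (limma adjusted p = 0.0276), but its probe was well above background on 2 control arrays and on none of the knockdown arrays, and no bound on the fold could be given. Its call was lost without control array 2 or 3 and without knockdown array 1 or 2. Sptssa, a small subunit that raises the activity of the same enzyme, fell by 0.51 (SE 0.064, limma adjusted p = 0.00583).

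Among the genes called higher, Smpdl3a, a relative of acid sphingomyelinase, gave -4.47, -4.69 and -4.70 in control and -3.51, -3.12 and -3.30 in knockdown. The groups were well separated, with a change of 1.31 (SE 0.12, limma adjusted p = 0.00244), 2.47-fold higher. St6galnac5, a brain sialyltransferase of the alpha-series gangliosides, gave -3.48, -3.45 and -3.44 in control and -2.45, -2.59 and -2.55 in knockdown. The control arrays were nearly equal and all knockdown arrays were higher. Its change was 0.93 (SE 0.054, limma adjusted p = 0.000738), 1.90-fold higher.

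Gba2, the non-lysosomal glucosylceramidase, changed by 0.65 (SE 0.039, limma adjusted p = 0.000828). S1pr2, a receptor for sphingosine-1-phosphate, changed by 0.69 (SE 0.058, limma adjusted p = 0.00183) and Cers3 by 0.65 (SE 0.076, limma adjusted p = 0.00464), and the second Cers3 probe was well above background on 0 of the 6 arrays. Gal3st1, which makes sulfatide from galactosylceramide, was called higher (limma adjusted p = 0.0492). Its probe was well above background on 0 control arrays and on all 3 knockdown arrays. With each control value raised to the lowest detected signal of its array, the gene was 1.69-fold higher in knockdown. This bound is approximate, because some undetected probes read above that signal. The call of Gal3st1 was lost without control array 1 and without each of the knockdown arrays. With median scaling, the genes called higher were Smpdl3a and St6galnac5 alone. Cptp, a transfer protein for ceramide phosphate, rose by 0.47 (limma adjusted p = 0.00325), and St3gal2 and St8sia3, which add sialic acid to gangliosides, rose by 0.31 and 0.26 (limma adjusted p = 0.0207 and 0.0425).

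**Figure D3:**
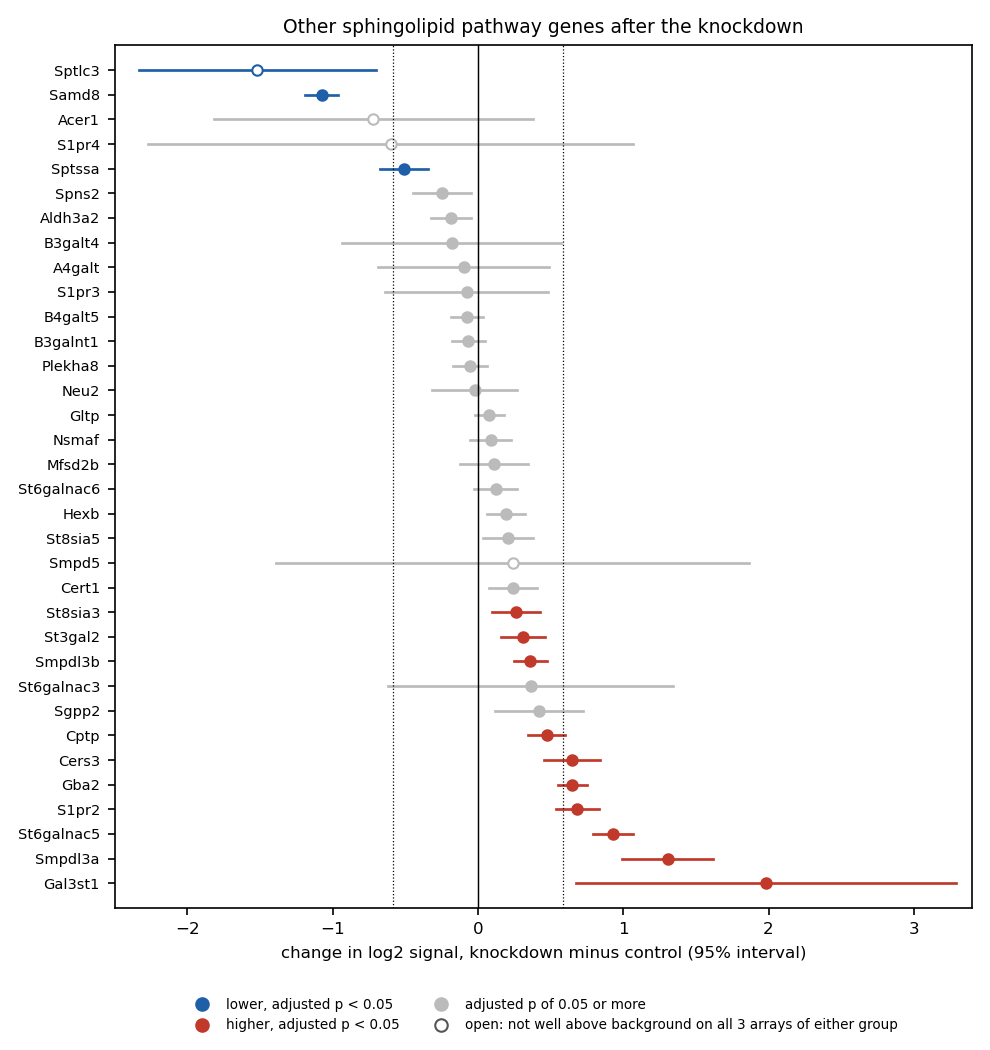
Change in log2 signal (knockdown minus control, horizontal axis) of the other pathway genes reported here, with 95% intervals from limma over 3 arrays per group and dotted lines at the 1.5-fold threshold. Samd8 and Smpdl3a lie furthest out among genes well above background on all arrays; open points were not well above background on all 3 arrays of either group, and the plotted fit of Gal3st1 is not a bound.

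Promoters were read for letter matches only. RefSeq promoters, from 250 bases before to 50 bases after the start, were found for 39 of the 43 members. Asah1, Smpd3, B4galnt1 and B4galt6 had no entry. CCAAT or ATTGG was present in 19 of the 39, or 48.7%, against 41.1% of the 27025 genes in the promoter table and 42.6% of tested genes with an entry. Over all genes called lower the share was 55.8%, and over all called higher 36.5%. Among members lower at an adjusted p below 0.05 the motif was present in 3 of 9, Ormdl1, Ormdl2 and Cers2. Among the higher ones it was present in 3 of 6, St3gal5, Sphk2 and Sgms2, and among those past neither in 13 of 22. In the 150 bases before the start alone, the shares were 35.9% of members and 27.7% of all genes.

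A gene with several promoters in the table counted once if any of them held the motif. The E-box core CACGTG, its own reverse complement and a part of the element shared by lysosomal genes, was present in 9 of 39 members, or 23.1%, against 8.09% of all genes and 10.4% of tested ones. These were Arsa, Cers2, Cers6, Degs1, Gla, Glb1, Sgms2, Smpd2 and Sphk1. The GC box GGGCGG or its complement CCGCCC was present in 32 of 39, or 82.1%, against 38.2% of all genes and 58.8% of tested ones. The members' promoters also had a higher GC content, with a median of 62.7% against 52.7% of all promoters. The first is over 39 members, each averaged over its promoters, and the second over 32851 single promoters of tested and untested genes. No GC content of tested genes alone is given. No motif searched is contained in another.

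**Figure D4:**
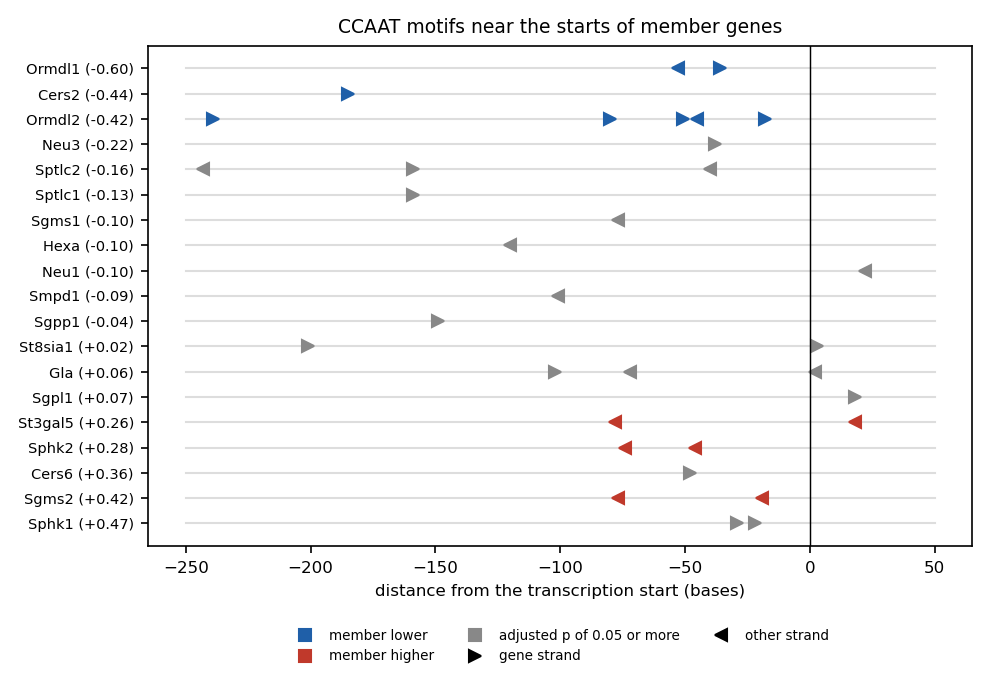
Position of each CCAAT (right-pointing, gene strand) or ATTGG (left-pointing, other strand) in bases from the transcription start for the 19 members with a match, ordered by change in log2 signal (in brackets). Blue members were lower, red ones higher and grey ones past neither; Ormdl2 holds 5 matches and Ormdl1 2, and matches near the start also occur in red and grey members.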

How the data were processed

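Per the labels, 6 N2a arrays fell into 3 control and 3 knockdown samples by their titles. The authors extracted total RNA, labelled it for Agilent SurePrint G3 mouse arrays and scanned them. The deposited scanner tables (Feature Extraction 10.10.1.1, per the submitters' processing notes) give each spot's processed signal, a background-corrected linear intensity. The deposited series matrix holds log2 values whose scale, centring and direction are not stated. Over 43557 probes, its differences between arrays equalled those of the scaling used here to within 0.0076, and its column medians ran from -0.012 to 0.018. The matrix served as an alternative.

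Control and outlier-flagged spots were left out, log2 processed signal was scaled to the 75th percentile of non-control spots, and replicate spots were averaged per probe. This gave 55681 probes, 245 of them incomplete. Complete probes at or above the 20th percentile on every array of at least 1 group were kept, in all 42126. Accessions were matched without versions to RefSeq (GRCm38.p6), where 25869 of 26392 curated mRNA probes matched, and the brightest tested probe stood for a gene. The array's own annotation uses another build, so probes have no coordinates here. A two-sided moderated test without covariates (lmFit and eBayes of limma 3.58.1, under R 4.3.3) was fitted over all kept probes and tested on simulated data. For a probe below detection on every array of 1 group, an approximate bound on the fold was formed. Each dim value was raised to the lowest signal of any detected probe on its array, although some undetected probes read above that signal. The number of arrays limits the precision.

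Array values are given for members called, for those past the adjusted p with a change over 0.4 in size and no overlap, and for the largest measurable change in each of the role groups without one. The members, lists and tests were chosen with earlier results of these data known. Alternatives were 24 other scalings, background corrections, filters, thresholds, fits and subsets of arrays, including the replicate number and the slide row as blocks. Normexp (offset 50) used the median spot signal, and the mean signal was not used here. Arsa's flagged spot was handled in 2 ways chosen after it was seen. Results for some genes of these lists are not reported here.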

Additional observations from a re-analysis of the deposited data

How the results depend on the processing

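Of 24 alternatives, none turned the direction of a named gene. Several could not do so, because other filters, fold thresholds, the intensity trend and the replicate block left the estimated change as it was. Degs2 and Sptlc3 were fitted in 22 of the alternatives and Gal3st1 in 23. The main counts of calls were 2 members lower, 1 higher, and 2 other pathway genes lower and 6 higher. Median scaling gave 4 members lower (adding B4galt6 and Cers4), 0 higher, a median change of -0.21 and 2 other genes higher. Quantile normalization gave 1 member lower (Galc) and 0 higher. Normexp with the 75th percentile gave 1 member lower (Ormdl1), 0 higher and 1 other gene lower, and moved the calls over all genes to 584 lower and 275 higher. Normexp with quantile normalization gave 0 members in each direction, a median change of -0.037, and 1 other gene lower and 2 higher, with 557 and 282 calls over all genes. Without the filter on dim probes 0 members were higher. A filter on all 6 arrays, or on signal well above background, left 1 other gene lower. With no fold change threshold 10 members were lower and 7 higher, and 4 and 10 other genes. Above 2-fold, 0 members were called in each direction and 2 other genes were called higher. With the slide row as a block, 0 members were called in each direction and 1 other gene was called lower. Within row 1 the counts were 0 for members and 0 for other genes in each direction. Leaving out 1 array gave 0 to 2 members lower, 0 to 1 higher, and 1 to 2 other genes lower. The 1 member called higher was not always Degs2. It was Asah2 with the filter on all 6 arrays, the filter on signal well above background, an intensity trend, array weights and without control array 3, and Sphk1 without knockdown array 1. The cause of these moves was not tested.

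The sample titles do not say whether replicate numbers pair the samples. Deviations of same-numbered arrays correlated at 0.018, 0.067 and 0.0025. Those of differently numbered arrays ran from -0.081 to 0.063. These correlations cannot show whether the samples were paired. The replicate block gave 2 members called lower (Ormdl1 and Galc) and 0 called higher, and 8 lower and 1 higher at an adjusted p below 0.05.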
